A study of Mus musculus with 12 samples.

Results

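The genes described here are the 10 listed genes of the mouse cone opsins and the cone phototransduction cascade. They were found by matching the Ensembl identifiers of the count files to gene symbols, and all 10 were among the 54146 genes counted and among the 18628 that passed the filter on low counts. The rule used no measured value. In short, no cone gene was called against the controls by edgeR or DESeq2. Among the knockout ages, edgeR as fitted here called none. DESeq2 called Opn1sw, the short-wavelength opsin, and Arr3, the cone arrestin, from P32 to P34, beside 8.48% of the genes it gave an adjusted p. So did edgeR without the filter on low counts or without P32 mouse 6. Those 2 settings called 656 and 2726 genes in all, against 45 as fitted here. Opn1sw was lower and Arr3 higher in every P32 knockout mouse than in every P30 control mouse, a separation that 9.65% of all tested genes also had in 1 direction or the other.

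Whole retinas were sequenced from 12 mice, 3 per condition, 1 eye per mouse. The sources differ on whether the P30 controls numbered 2 or 3, and all 3 libraries labelled as controls were used, with each left out in turn as an alternative. The animals were kept on a 129/SV background. In the 9 conditional knockout (cKO) mice, Otx2 flox/flox alleles were combined with a Crx-CreERT2 transgene, and 1 intraperitoneal tamoxifen injection was given at P30 (postnatal day 30). Their retinas were taken 2, 4 or 8 days later, at P32, P34 or P38. The 3 control mice, labelled Control_Crx, were taken at P30, the day of injection for the others. The sources name control mice apart from tamoxifen-injected mice. They do not give the exact genotype of these controls or state outright that they were not injected. The Crx promoter directs the recombinase to photoreceptors, so the Otx2 gene was left intact in bipolar cells and retinal pigment epithelium (RPE), and the RNA included RPE. Recombination removes the second coding exon but not the transcript, and Otx2 itself, summed over the gene, measured 293 to 377 CPM (counts scaled to a common library size) in the 12 libraries with no group standing below the controls. The gene-level count therefore does not check the deletion. Age and the induced deletion, and tamoxifen itself if the controls were not injected, changed at once between the controls and every cKO group and cannot be told apart.

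Cones are the photoreceptors of daylight and colour vision and are a small minority of the photoreceptors of the mouse retina, where rods dominate. In a cone, light activates an opsin, the opsin activates cone transducin, transducin releases the phosphodiesterase from its inhibitory subunit, the fall in cyclic GMP closes a cyclic nucleotide-gated channel, and arrestin shuts the opsin off. Most mouse cones carry both the short-wavelength and the medium-wavelength opsin in proportions that vary from ventral to dorsal retina. OTX2 and its relative CRX are homeodomain transcription factors of photoreceptors that bind DNA at the core letters TAATC.

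Since the deleted factor binds DNA, the promoters of the opsins and of Arr3, on which the results below turn, are shown first. RefSeq windows of 300 bases, from 250 before to 50 after the transcription start, were found for 6 of the 10 members in build GRCm38.p6 (7 windows, since Cnga3 has 2 starts). The Opn1sw window is chr6:29380464-29380763, minus strand, the Opn1mw window is chrX:74127216-74127515, plus strand, and the Arr3 window is chrX:100605247-100605546, plus strand. Each is written 5′ to 3′ on the strand of its gene, and capitals mark TAATC or its reverse complement GATTA.
Opn1sw: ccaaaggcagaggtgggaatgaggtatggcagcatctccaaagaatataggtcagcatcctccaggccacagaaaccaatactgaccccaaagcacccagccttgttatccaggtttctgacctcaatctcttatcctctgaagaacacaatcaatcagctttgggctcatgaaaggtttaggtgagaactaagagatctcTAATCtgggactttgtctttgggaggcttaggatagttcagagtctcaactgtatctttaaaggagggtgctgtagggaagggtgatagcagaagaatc
Opn1mw: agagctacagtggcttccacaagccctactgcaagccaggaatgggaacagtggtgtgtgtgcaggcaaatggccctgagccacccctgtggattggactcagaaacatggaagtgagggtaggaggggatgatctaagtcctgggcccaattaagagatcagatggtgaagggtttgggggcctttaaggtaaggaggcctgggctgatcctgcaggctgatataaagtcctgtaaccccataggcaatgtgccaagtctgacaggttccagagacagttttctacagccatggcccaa
Arr3: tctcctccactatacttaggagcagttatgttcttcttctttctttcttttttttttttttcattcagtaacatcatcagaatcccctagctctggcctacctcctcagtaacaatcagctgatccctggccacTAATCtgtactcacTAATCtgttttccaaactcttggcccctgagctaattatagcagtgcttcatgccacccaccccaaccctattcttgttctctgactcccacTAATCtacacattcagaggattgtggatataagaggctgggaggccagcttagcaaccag
Arr3 held 3 matches, which began 116, 102 and 10 bases before the start. Opn1sw held 1 match, 49 bases before the start. Opn1mw held none in this window, and neither did Pde6h or Cnga3, while Gnat2 held 1 in reverse orientation, 18 bases before the start. Among 32851 such windows of all genes, 22.0% held at least 1 match and 0.658% held at least 3. A match is a description of letters and not a measured binding site.

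The libraries held 29701483 to 60145034 counts on genes, and the least abundant member in any library had 280 counts, so counting error was small beside the spread between mice. All values below are CPM after scaling of the libraries by TMM (trimmed mean of M values) unless stated otherwise. Several libraries stood apart, some within their groups and some along them. In P32 mouse 4, the median protein-coding gene with a transcript under 1 kb was 0.81 higher in log2 CPM than in the other 11 mice, and the median gene over 4 kb was 0.43 lower. The summed level of 9 lens genes ranged from 573 to 41800 CPM in the P30 controls, from 802 to 47300 at P32, from 285 to 801 at P34 and from 5380 to 13800 at P38. The 5 measured smooth muscle genes summed to 29.5 to 197 CPM at P30 and to 9.28 to 48.7 in the cKO mice, and the 10 RPE and pigment genes to 205 to 605 and to 129 to 303. These 10 genes did not move together. Their log2 fold changes against P30 ran from -4.42 to 0.33 at P34, with 3 positive, and from -3.26 to 0.39 at P38, with 4 positive. In edgeR, Tyrp1 and Mlana among the pigment genes were called lower at P34 than at P30. So were Myh11, Tagln, Acta2 and Myl9 among the muscle genes, beside 0.660% of all tested genes. Over the 9 cKO mice, where 0.0537% of all tested genes were called, Myh11, Tagln and Myl9 were also called lower. Their adjusted p was 0.0260, 0.0280 and 0.0397 in edgeR. At P34 DESeq2 called 4 pigment genes (adding Pmel and Tyr), 4 muscle genes and 7 lens genes, beside 1.53% of the genes it gave an adjusted p. At P32 and P38 it called 2 and 3 muscle genes, 0 and 1 pigment genes and 0 lens genes, beside 0.131% and 0.226%. The ON bipolar, Müller glia and amacrine and ganglion cell lists, which summed to 1440 to 1910, 4420 to 5260 and 1720 to 2450 CPM over all mice, had no member called by edgeR in any comparison. DESeq2 called none of them against the controls. From P32 to P34 it called 1 Müller glia gene (Apoe) and 3 amacrine and ganglion cell genes (Nefl, Pou4f1 and Slc17a6). It called 8.48% of the genes with an adjusted p in that comparison. From P32 to P38 it called 1 ON bipolar gene (Gng13), beside 5.61%. Xist, the transcript of the inactive X chromosome, measured 1730 to 2460 CPM in 7 mice and 0.60 to 3.28 CPM in 5, namely 1 at P32, 2 at P34 and 2 at P38, so all 3 controls were on the high side. What these differences contributed to the cone values was not tested, except as the covariates and omissions given below.

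Ordered by level per kilobase of the principal annotated transcript, averaged over the 12 mice, Opn1sw came first with 260 CPM per kb (173 to 346). It was followed by Gnb3 with 225 (203 to 257), Arr3 with 168 (91.8 to 238), Opn1mw with 128 (97.0 to 160) and Gnat2 with 121 CPM per kb (103 to 152). Among these 5 genes the range of each overlapped that of the next, and Opn1sw exceeded Gnb3 in 8 of 12 mice. The shortest coding transcript of Opn1sw, of 1426 bases, would give it a mean of 440 CPM per kb and place it above Gnb3 in all 12 mice without overlap. Pde6c, at 20.6 CPM per kb (11.8 to 31.3), lay apart from the genes above and below it. The channel subunits were lowest, Cngb3 at 7.25 CPM per kb (5.47 to 8.33) and Cnga3 at 4.44 (2.36 to 5.47), with Cngb3 above Cnga3 in all 12 mice. For Cnga3, the shortest full-length coding transcript would give 7.59 CPM per kb and turn this last order. Gngt2 and Pde6h were not placed, because their annotated coding transcripts run from 498 to 1587 bases and from 211 to 5940 bases, which puts Gngt2 anywhere between 61.8 and 197 CPM per kb and Pde6h between 20.2 and 569.

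Across the 3 ages, the cone genes as a group stayed near their control level. A gene was called where edgeR's quasi-likelihood test gave a p, adjusted by Benjamini and Hochberg's method, no higher than 0.05 and the log2 fold change reached 0.5 in either direction. By this rule 0 of 10 members were called at P32, where 0% of all tested genes were called, 0 of 10 at P34, against 0.660% of all genes, and 0 of 10 at P38, against 0%. With the 9 cKO mice as 1 group, 0 of 10 members and 0.0537% of all genes were called. At an unadjusted p of at most 0.05, 2 members passed at P32 (5.64% of all genes), 0 at P34 (10.5%), 0 at P38 (5.64%) and 0 over the 9 cKO mice (2.63%). By DESeq2 no member was called in these 4 comparisons either, against 0.131%, 1.53%, 0.226% and 0.288% of the genes it gave an adjusted p, with 2, 0, 1 and 0 members at an unadjusted p of at most 0.05. The share of all genes at that unadjusted level was not computed for DESeq2, here or below. The members had a median log2 fold change of 0.03, 0.06 and 0.03 for P32, P34 and P38, beside -0.01, -0.00 and -0.01 over all tested genes. Positive log2 fold changes were found in 5, 7 and 6 of the 10 members, but in 6, 1 and 0 when libraries were scaled by rod genes and in 6, 5 and 3 without scaling beyond the library total. The rod scaling brought the median of all genes to -0.21 at P34 and -0.25 at P38. In a bulk sample, fewer cones and less RNA per cone cannot be told apart.

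**Figure D1:**
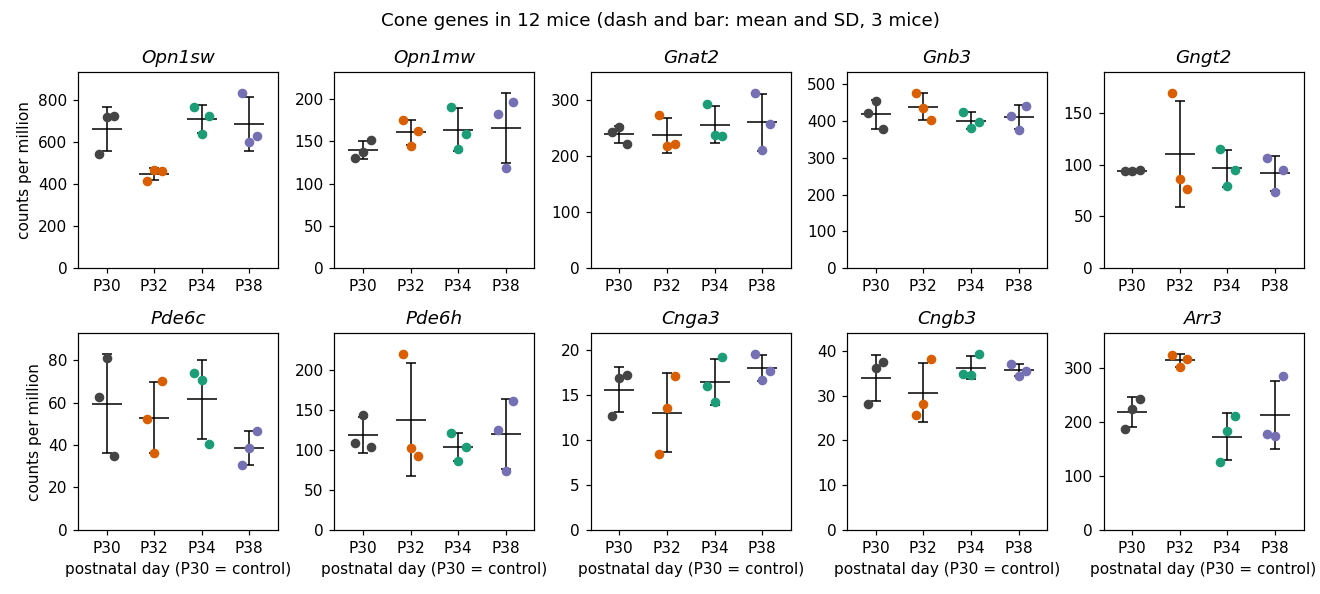
CPM (vertical axes, from 0) of the 10 cone genes in the 12 mice by postnatal day, with P30 the control and P32, P34 and P38 the cKO groups. Points are mice, and the dash and bar give the mean and SD of 3 mice. Only in the panels of Opn1sw and Arr3 do the P32 points lie wholly below or above the P30 points.

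**Figure D2:**
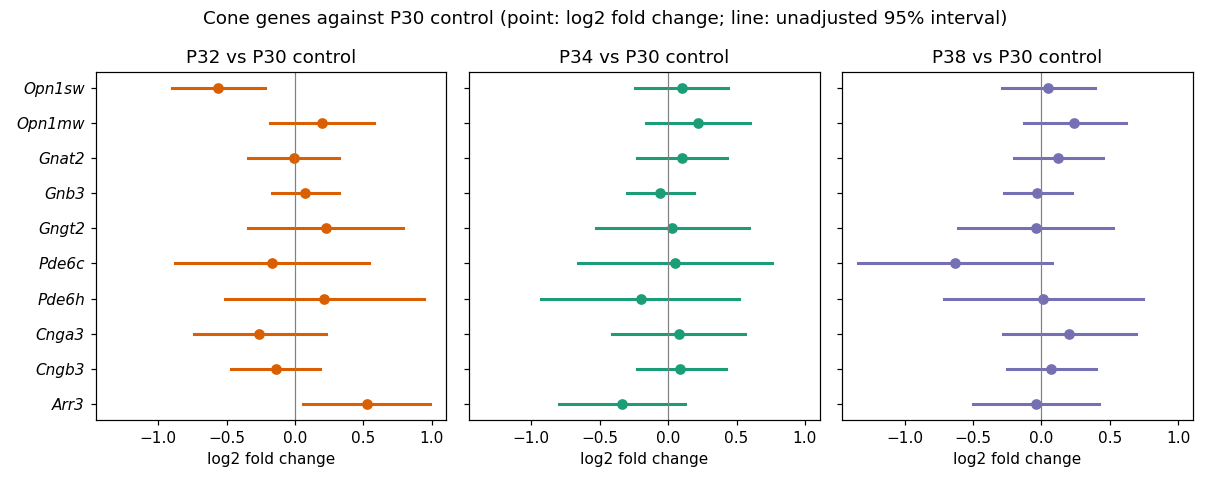
Log2 fold change (horizontal axis) of each cone gene at P32, P34 and P38 against the 3 P30 controls, with unadjusted 95% intervals from edgeR. Only the intervals of Opn1sw and Arr3 at P32 leave out 0, and no adjusted p reached 0.05.

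Of the opsins, Opn1sw had P32 values apart from the controls and Opn1mw did not, and neither was called. Opn1sw (ENSMUSG00000058831, chr6:29376671-29388468, minus strand, GRCm38) encodes the short-wavelength opsin, which in the mouse responds to ultraviolet light. It measured 544, 719 and 724 CPM in the 3 P30 controls and 417, 469 and 465 CPM at P32. At P34 it measured 768, 639 and 726 CPM, and at P38 834, 600 and 628 CPM. All 3 P32 mice thus lay below all other mice, and the P34 and P38 mice overlapped the controls. The log2 fold change at P32 was -0.56 ± 0.16 (SE, n = 3 against 3), a level of 0.680 times the control with a 95% interval of 0.536 to 0.861. Its unadjusted p of 0.00403 became 0.698 after adjustment over all genes. The estimate ran from -0.68 to -0.31 over 25 alternatives, with adjusted p from 0.185 to 1.0 and the smallest change when the smooth muscle or the RPE genes entered as a covariate. Without mouse 4 it was -0.50. At P34 and P38 the log2 fold changes were 0.10 and 0.05, with intervals of the fold of 0.847 to 1.36 and 0.819 to 1.31. Of the exonic bases of Opn1sw, 15.5% overlap Calu on the opposite strand. The libraries were stranded, but the strand setting of the counting is not given in the sources used here.

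Opn1mw (ENSMUSG00000031394, chrX:74127464-74150760, plus strand), the medium-wavelength opsin, measured 131, 138 and 152 CPM at P30 and 175, 145 and 162 CPM at P32. The P34 values were 191, 141 and 159 CPM and the P38 values 182, 119 and 197 CPM. Means were higher at each age after P30, but every cKO group overlapped the controls. The log2 fold changes were 0.20 ± 0.17, 0.22 ± 0.17 and 0.24 ± 0.17 (SE), and the lowest of their 3 unadjusted p-values was 0.185 in edgeR. The intervals of the fold reached from 0.882 to 1.49 at P32 and from 0.911 to 1.54 at P38.

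The ratio of Opn1sw to Opn1mw within a mouse is free of the scaling of the library. It was 4.17, 5.23 and 4.76 in the controls, 2.38, 3.24 and 2.87 in the P32 group, 4.02, 4.55 and 4.57 in the P34 group and 4.58, 5.04 and 3.19 in the P38 group. The P32 mice lay below all controls, and 1 P38 mouse reached into the P32 range. Over the 9 cKO mice the log2 ratio was 0.34 below the controls (log2 difference -0.34), with a 2-sided exact permutation p of 0.191, where 220 regroupings allow no p under 0.00455. At P32 alone the difference was -0.74 with an exact permutation p of 0.10, the smallest that 3 against 3 mice allow. For P34 and P38 the differences were -0.10 and -0.16, with exact permutation p of 0.400 and 0.60.

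The cone transducin subunits did not differ between groups beyond the spread of the mice. Gnat2 (ENSMUSG00000009108, chr3:108092789-108101432, plus strand), the alpha subunit that carries the signal to the phosphodiesterase, measured 242, 251 and 222 CPM at P30, 272, 217 and 221 at P32 and 293, 238 and 236 at P34. The P38 mice had 312, 211 and 256 CPM. Its log2 fold changes were -0.01, 0.10 and 0.12, each ± 0.15 (SE), and the groups overlapped at every age. Gnb3 (ENSMUSG00000023439, chr6:124834240-124840275, minus strand), the beta subunit shared with ON bipolar cells, was among the steadiest members, with 421, 453 and 376 CPM at P30 and 475, 435 and 403 at P32. In the P34 mice it was 424, 380 and 395 CPM, and in the P38 mice 413, 375 and 440 CPM. Its log2 fold changes of 0.07, -0.06 and -0.03 had an SE of 0.11, the smallest of the 10 members, so the interval on the log2 scale ran from -0.17 to 0.32 at P32 and from -0.27 to 0.22 at P38. Gngt2 (ENSMUSG00000038811, chr11:95837216-95845734, plus strand), the gamma subunit, was 93.9, 93.4 and 95.2 CPM in the controls. At P32 it was 169 CPM in mouse 4 but 85.7 and 76.0 in the other two, and the P34 and P38 mice lay between 73.2 and 115 CPM. The log2 fold change at P32 of 0.23 became -0.22 without mouse 4, the library with high short transcripts, and -0.12 with the length trend of each library as a covariate. Abi3 overlaps 12.5% of the exonic bases of Gngt2 on the opposite strand.

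Of the phosphodiesterase genes, Pde6c varied most among the control mice. Pde6c (ENSMUSG00000024992, chr19:38132781-38183958, plus strand) encodes the catalytic subunit and Pde6h (ENSMUSG00000064330, chr6:136923832-136968865, plus strand) the inhibitory gamma subunit. Pde6c measured 62.9, 80.9 and 34.9 CPM at P30, 52.4, 36.4 and 70.0 at P32 and 74.2, 70.5 and 40.3 at P34. The P38 mice had 30.4, 38.7 and 46.6 CPM. Both controls above 60 CPM exceeded all P38 mice, but the third lay among them. At P38 the log2 fold change of Pde6c was -0.63 ± 0.33 (SE), the largest in size of any member and age, with an unadjusted p of 0.0780 and an adjusted p of 0.847. It ranged from -1.09, with the RPE genes as a covariate, to -0.35, without the second control, over 25 alternatives. Pde6h measured 109, 144 and 103 CPM at P30, 219, 102 and 91.9 at P32 and 121, 85.7 and 104 at P34. The P38 mice had 125, 73.9 and 161 CPM. As for Gngt2, the highest value belonged to P32 mouse 4, and the log2 fold change at P32 went from 0.21 to -0.29 without it and to -0.15 with the length covariate. Arhgdib overlaps 1.73% of the exonic bases of Pde6h on the opposite strand.

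The channel subunits Cnga3 (ENSMUSG00000026114, chr1:37214434-37263384, plus strand) and Cngb3 (ENSMUSG00000056494, chr4:19280850-19510623, plus strand) form the cyclic nucleotide-gated channel of cones. Cnga3 measured 12.7, 16.9 and 17.2 CPM at P30, 8.40, 13.6 and 17.1 at P32 and 16, 14.2 and 19.2 at P34. The P38 mice had 19.5, 16.7 and 17.7 CPM. Cngb3 measured 28.1, 36.2 and 37.4 CPM at P30, 25.7, 28.2 and 38.1 at P32 and 34.8, 34.6 and 39.2 at P34. The P38 mice had 37.1, 34.4 and 35.6 CPM. The lowest value of both genes came from P32 mouse 4, and each cKO group overlapped the controls. Their log2 fold changes were -0.26 ± 0.22 and -0.14 ± 0.15 (SE) at P32, and -0.02 and -0.03 without mouse 4. At P38 they were 0.20 ± 0.22 and 0.07 ± 0.15. The CPM ratio of Cnga3 to Cngb3 was 0.453 to 0.467 in the controls and 0.411 to 0.524 in the cKO mice other than mouse 4, where it was 0.326.

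Arr3 (ENSMUSG00000060890, chrX:100605497-100618493, plus strand), the cone arrestin that binds light-activated cone opsin, went the other way from Opn1sw at P32. It measured 187, 224 and 242 CPM at P30 and 323, 301 and 316 CPM at P32. The P34 values were 125, 182 and 210 CPM and the P38 values 177, 174 and 285 CPM. The 3 P32 mice were therefore above all other mice. The log2 fold change at P32 was 0.53 ± 0.21 (SE), a level of 1.44 times the control with a 95% interval of 1.04 to 1.99, and its unadjusted p of 0.0295 became 0.698 after adjustment. Over 25 alternatives the estimate ran from 0.32, with the RPE genes as a covariate, to 0.68, with Xist as a covariate, and it was 0.50 without mouse 4. Against P30, the log2 fold change was -0.34 at P34 and -0.04 at P38. Arr3 and Opn1mw lie on the X chromosome, and at P34 and P38 the highest Arr3 value was that of the 1 mouse per group with high Xist, while at P32 it was that of the 1 mouse with low Xist.

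Between control and P32, the groups of 2 members, Opn1sw and Arr3, did not overlap, which also held for 9.65% of all tested genes. Between control and P34 (20.1% of all genes) and between control and P38 (16.2%), 0 of 10 members had groups that did not overlap.

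In comparisons among the cKO ages, all mice had the same genotype and had received tamoxifen, while age and time since injection still differ. The Xist and lens levels given above also differ between these groups. Remaining tamoxifen and OTX2 protein were not measured in these libraries. From P32 to P34, Opn1sw had a log2 fold change of 0.66 ± 0.16 (SE), 1.58 times the P32 level with an interval of 1.25 to 2.00, and Arr3 of -0.87 ± 0.21, 0.549 times with an interval of 0.397 to 0.759. Both had an adjusted p of 0.0948 in edgeR, so 0 of 10 members were called where 0.242% of all genes were. Those 2 genes were also the members with an unadjusted p of at most 0.05 (26.9% of all genes) and with groups that did not overlap (28.4%). DESeq2 called both, with adjusted p of 0.00317 and 0.00596, where it called 1419 genes, 8.48% of those with an adjusted p. From P32 to P38 the log2 fold changes were 0.61 ± 0.16 for Opn1sw and -0.57 ± 0.21 for Arr3, with adjusted p of 0.114 and 0.157 in edgeR, and again 0 members were called (0% of all genes). In edgeR the 2 genes were alone among the members in an unadjusted p of at most 0.05 (23.3% of all genes) and in groups that did not overlap (26.4%). DESeq2 called Opn1sw at 0.00904, among 938 genes or 5.61%, and gave Arr3 an adjusted p of 0.0823. In DESeq2 the unadjusted p was at most 0.05 for 3 members, the third being Cnga3 at 0.0472, with no call. The share of all genes at that level was not computed for DESeq2 and was 23.3% in edgeR. From P34 to P38, 0 members were called (0.199% of all genes) and 0 had an unadjusted p of at most 0.05 (5.08%) in edgeR, with 0 and 1 members in DESeq2, which called 0.748% of genes. The 3 P32 libraries enter both comparisons, which are therefore not independent, and mice 4 and 5 among them, like control mouse 3, were rich in lens genes. P32 mouse 6, with 802 CPM of lens genes, had 465 CPM of Opn1sw and 316 CPM of Arr3. The part of lens content in the values of these 3 libraries was not tested beyond the covariate and omissions given below.

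A test of any difference among the 4 conditions called 0 of 10 members and 0.344% of all genes. The lowest adjusted p-values in edgeR were 0.190 for Opn1sw and 0.210 for Arr3, and these 2 were the members at an unadjusted p of at most 0.05, which 17.2% of all genes reached. By DESeq2 both were called, with adjusted p of 0.00605 and 0.0222, among 1279 genes or 7.10%. The other 8 members had unadjusted p-values in edgeR from 0.219 to 0.745.

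**Figure D3:**
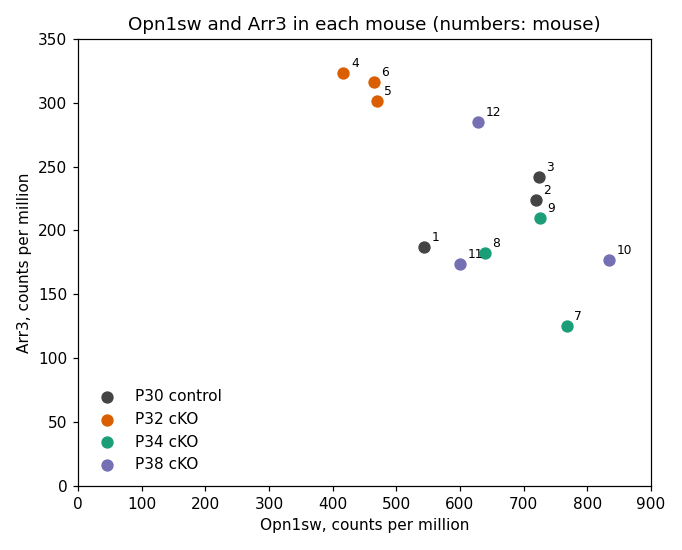
Arr3 (vertical axis) against Opn1sw (horizontal axis), both in CPM from 0, for the 12 mice, coloured by condition and numbered by mouse. The P32 mice 4, 5 and 6 lie at the upper left, with Opn1sw of 417 to 469 and Arr3 of 301 to 323 CPM.

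The rod phototransduction genes, the cascade most like this one, were set beside the cone genes to see whether both moved alike. Their mean log2 CPM relative to the P30 mean was -0.18 to -0.03 at P32, 0.07 to 0.36 at P34 and 0.02 to 0.57 at P38, while that of the cone genes was -0.14 to 0.10, -0.09 to 0.10 and -0.24 to 0.15. The median log2 fold change of the rod genes was -0.09, 0.24 and 0.34, and 0 of 10 were called at any age in edgeR, with 0, 1 and 1 higher at an unadjusted p of at most 0.05, beside the same 5.64%, 10.5% and 5.64% of all genes. DESeq2 also called 0 at each age. The difference between the lists was not tested. Among the rod genes with the largest differences among the conditions, Cngb1, the rod channel subunit, measured 907 to 1040 CPM at P30 and 1220 to 1550 at P38, with a log2 fold change of 0.44 ± 0.13 and an adjusted p of 0.813. Pde6a, a catalytic subunit of the rod phosphodiesterase, measured 2330 to 2810 and 2980 to 4300 CPM, with a log2 fold change of 0.45 and an adjusted p of 0.847. The CPM ratio of the transducin alpha subunits, Gnat2 to Gnat1, was 0.0168 to 0.0211 in the controls and 0.0159 to 0.0170 at P34 and P38, with 0.0255 in P32 mouse 4.

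**Figure D4:**
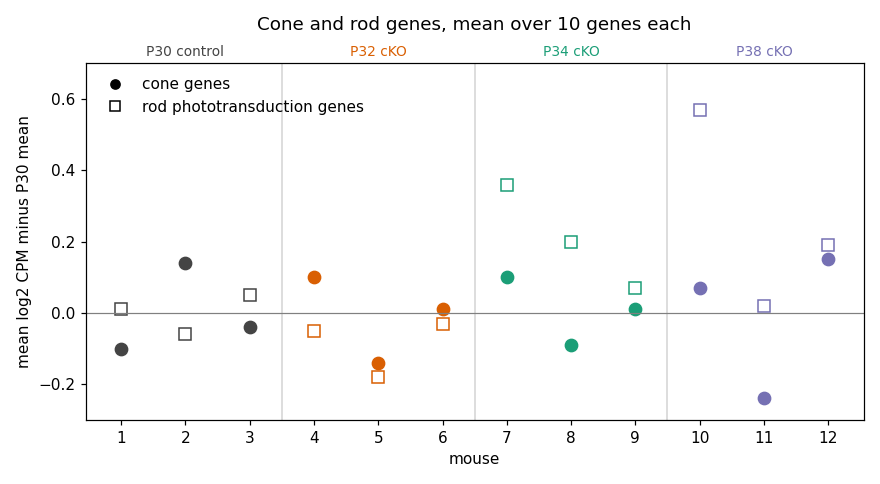
Mean log2 CPM of the 10 cone genes (filled circles) and of the 10 rod phototransduction genes (open squares) in each mouse, relative to the mean of the 3 P30 controls (vertical axis). The cone values lie between -0.24 and 0.15 in all 12 mice, and the highest rod values are 0.36 in P34 mouse 7 and 0.57 in P38 mouse 10.

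Genes that act on the photoresponse in both photoreceptor types, or that shape its recovery, were counted from a list of 11, and 0 were called in any comparison in edgeR. At an unadjusted p of at most 0.05, 1 was lower at P32, 0 passed at P34 and 1 was higher at P38, beside the 5.64%, 10.5% and 5.64% of all genes. DESeq2 called 0 against the controls, 1 of 11 from P32 to P34 (Slc24a2, beside 8.48% of all genes) and 3 from P32 to P38 (Gucy2e, Slc24a2 and Rgs9, beside 5.61%). Their median log2 fold change was -0.14, 0.17 and 0.22 at P32, P34 and P38. The 3 with the largest differences among the conditions were Gucy2e, a guanylate cyclase that restores cyclic GMP, Slc24a2, a sodium, calcium and potassium exchanger of cones, and Rgs9, which speeds the shut-off of transducin. Gucy2e measured 531 to 680 CPM at P30, 431 to 643 at P32, 730 to 788 at P34 and 820 to 935 at P38, so that the P34 and P38 mice all exceeded the controls. Its log2 fold change at P38 was 0.49 ± 0.15 (SE), with an unadjusted p of 0.00763 and an adjusted p of 0.847. Slc24a2 measured 76.3 to 118 CPM at P30, 50 to 83.0 at P32, 107 to 137 at P34 and 100 to 121 at P38. Rgs9 ranged from 108 to 279 CPM at P30 and from 21 to 172 at P32, and measured 330 to 367 CPM at P38.

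Of 14 transcription factors and cofactors of photoreceptor identity, 0 were called in any comparison in edgeR, with median log2 fold changes of -0.05, 0.10 and 0.14. At an unadjusted p of at most 0.05, 0, 0 and 1 passed at P32, P34 and P38, beside 5.64%, 10.5% and 5.64% of all genes, the last being Nr2f2 with a log2 fold change of -0.32 and an adjusted p of 0.847. DESeq2 called 0 against the controls, 2 of 14 from P32 to P34 (Nr2e3 and Nr2f1, beside 8.48% of all genes) and 1 from P32 to P38 (Nr2e3, beside 5.61%). Otx2 had log2 fold changes of 0.14, 0.15 and 0.17. Thrb and Rxrg, the nuclear receptors that pattern the cone opsins, had log2 fold changes of -0.14, 0.12 and 0.25, and of 0.22, 0.24 and 0.24. Nr2e3, which represses cone genes in rods, had the largest differences among the conditions, measuring 476 to 624 CPM at P30, 445 to 453 at P32, 593 to 722 at P34 and 538 to 814 at P38. Its 3 P32 mice lay below all others. From P32 to P34 its log2 fold change was 0.57 ± 0.16 (SE), with an adjusted p of 0.0949 in edgeR. Nr2f1 and Nr2f2, the COUP transcription factors, followed, with Nr2f1 at 14.6 to 18.0 CPM at P30, 15.8 to 24.5 at P32 and 11.8 to 13.6 at P34, and Nr2f2 at 19.4 to 22.6, 21.2 to 26.6 and 19.2 to 21 CPM. At P38, Nr2f1 measured 11.9 to 16.2 CPM and Nr2f2 16.3 to 17.1 CPM, below all controls.

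Over the 12 libraries, which share their conditions and any difference in RNA quality, Pearson correlations of log2 CPM were computed between members as a description. The highest was 0.91 between the channel subunits Cnga3 and Cngb3, followed by 0.87 between Gnb3 and Pde6h and 0.86 between Gngt2 and Pde6h. Opn1sw and Arr3 had the lowest, -0.69. The correlation between the opsins was 0.17. Among 18618 other tested genes, those most like Opn1sw over the 12 libraries were Uri1 (r = 0.952), Pak2, Gm11410, Clic4 and Trmt2b, those most like Opn1mw were Gm12017 (0.897), Kiz, 1110051M20Rik, 2900041M22Rik and Gm11613, and those most like the mean of the members were Gm8565 (0.831), Rgs13, Gm7765, Kcne2 and C1qc. With this many genes and 12 points, such values are a description of these libraries.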

How the data were processed

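Total RNA of whole retinas was converted to stranded, poly-A selected libraries. Per the labels, bcl2fastq 2.17.1.14, STAR 2.5.3a and HTSeq 0.6.1p1 were used, with mouse build mm10 (the same assembly as GRCm38). The authors deposited raw counts of reads per Ensembl gene, 1 table per mouse, not normalized, with HTSeq's summary lines, which were left out of library sizes. Reads without a feature were 6.53 to 13.7% and reads aligned to several places 23.7 to 32.2% of those in the tables. Gene symbols, positions and transcript lengths came from GENCODE M21 (GRCm38), which named 99.88% of the identifiers.

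Counts were filtered with filterByExpr, scaled by TMM and fitted with edgeR 4.0.16 (R 4.3.3) over all 12 libraries with condition as the only term, by the quasi-likelihood test, with Benjamini-Hochberg adjustment over 18628 genes. The scripts were tested on simulated data. DESeq2 1.42.0 was an alternative, beside other scalings, filters, covariates and the omission of each mouse. Levels on the log2 scale used a prior count of 2. Every opsin ratio was compared by an exact permutation test over mice, 2-sided. Nothing states that libraries were processed in batches. No pair of replicates agreed within sampling noise, the lowest chi-square per degree of freedom being 21.6. Each mouse is 1 animal, so p-values measure the spread between animals.

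The members and lists were chosen with earlier results of these data known. All 10 members are described. Of each other list, genes called in a comparison are named, or else the 3 with the largest F over the 4 conditions, with Otx2 always named and 1 gene under this rule not reported here, and the 5 genes most correlated with Opn1sw, Opn1mw and the members' mean. Thrb and Rxrg, and Xist, Gnat1 and the genes overlapping members, were named outside this rule, after their values were seen.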

Additional observations from a re-analysis of the deposited data

Results flagged for a closer look

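In the 9 cKO mice, 1 Gngt2 value lay far from the others: P32 mouse 4 had 169 CPM, and the next highest mouse had 115 CPM. The gap took 0.565 of the whole range of the 9 mice, above Dixon's 95% critical value for 9 samples. At that value, chance alone picks out about 1 in 20 groups. All 10 members were examined in this way, so a search over them flags a value by chance more often. The 9 mice also span 3 ages. The other P32 mice had 85.7 and 76.0 CPM. Mouse 4 is also the library in which short transcripts were high. The part of that in the Gngt2 value was not tested.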

How the results depend on the processing

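The counts of called cone genes at P32, P34 and P38 against P30 and over the 9 cKO mice were 0 under every alternative run. From P32 to P34 the count of 0 became 1 with scaling by rod genes, 2 without the filter on low counts, 2 in DESeq2 and 2 at an adjusted p of 0.1, and ran from 0 to 2 when 1 mouse was left out, reaching 2 without P32 mouse 6. Calls over all genes rose in the same settings from 45 to 1477, 656, 1419, 1037 and 2726. From P32 to P38 it became 1 with scaling by rod genes and 1 in DESeq2, and ran from 0 to 1 when 1 mouse was left out, reaching 1 without P32 mouse 6, where calls over all genes went from 0 to 2318, 938 and 1946. Any difference among conditions was called for 2 members in DESeq2, among 1279 genes against 64 in edgeR. No paired analysis was possible because the mouse numbers are not shared between groups.

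Of 850 log2 fold changes of single members under alternatives, 762 kept their direction and side of the threshold, 10 passed it and 78 turned sign, in each case from a value of at most 0.24 in size. The covariates of lens genes and of the length trend were chosen after seeing the data. The cause of each turn was not tested.

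With scaling by rod genes, the log2 fold changes that turned sign were at P32 those of Gnat2 (0.07), and at P34 those of Opn1sw (-0.11), Gnat2 (-0.12), Gngt2 (-0.19), Pde6c (-0.20), Cnga3 (-0.12) and Cngb3 (-0.11), and at P38 those of Opn1sw (-0.22), Opn1mw (-0.02), Gnat2 (-0.15), Pde6h (-0.26), Cnga3 (-0.05) and Cngb3 (-0.17). With the library total as the only scaling, the log2 fold changes that turned sign were at P32 those of Gnat2 (0.02), and at P34 those of Gngt2 (-0.03) and Pde6c (-0.03), and at P38 those of Opn1sw (-0.04), Pde6h (-0.08) and Cngb3 (-0.01). With the smooth muscle covariate, the log2 fold changes that turned sign were at P32 those of Gnat2 (0.04), and at P34 those of Gnb3 (0.03), Pde6c (-0.29) and Pde6h (0.35), and at P38 those of Arr3 (0.11), Gnb3 (0.04) and Gngt2 (0.24). With the RPE covariate, the log2 fold changes that turned sign were at P32 those of Gnat2 (0.06), and at P34 those of Pde6c (-0.56), and at P38 those of Gngt2 (0.10) and Pde6h (-0.02). With the transcript length covariate, the log2 fold changes that turned sign were at P32 those of Gngt2 (-0.12) and Pde6h (-0.15), and at P34 those of Gnb3 (0.01), Pde6h (0.04), Cnga3 (-0.10) and Cngb3 (-0.04), and at P38 those of Gnb3 (0.04), Gngt2 (0.20) and Cngb3 (-0.05). With the Xist covariate, the log2 fold changes that turned sign were at P34 those of Gnat2 (-0.02), Gngt2 (-0.22) and Pde6c (-0.01), and at P38 those of Arr3 (0.15) and Pde6h (-0.10). With the lens covariate, the log2 fold changes that turned sign were at P34 those of Pde6c (-0.47), Cnga3 (-0.12) and Cngb3 (-0.05). 

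When 1 mouse was left out, the log2 fold changes that crossed 0 ran at P32 Gnat2 from -0.12 to 0.05, Gngt2 from -0.22 to 0.43, Pde6c from -0.44 to 0.11 and Pde6h from -0.29 to 0.44. They ran at P34 Opn1sw from -0.02 to 0.17, Gnat2 from -0.02 to 0.15, Gnb3 from -0.14 to 0.01, Gngt2 from -0.12 to 0.15, Pde6c from -0.23 to 0.33, Cnga3 from -0.06 to 0.18 and Cngb3 from -0.02 to 0.16. They ran at P38 Opn1sw from -0.10 to 0.14, Arr3 from -0.31 to 0.09, Gnat2 from -0.02 to 0.26, Gnb3 from -0.10 to 0.04, Gngt2 from -0.15 to 0.09, Pde6h from -0.26 to 0.27 and Cngb3 from -0.05 to 0.15.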

Other observations

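The CPM ratio of Opn1sw to Arr3 was noticed after the values were seen and carries no test. It was 2.91, 3.22 and 2.99 in the P30 controls, 1.29, 1.56 and 1.47 in the P32 group and 6.16, 3.52 and 3.46 at P34. The P38 mice had 4.72, 3.45 and 2.20. Every P32 mouse lay below every other mouse. In the control mice the ratio spread little, with an SD of 0.07 on the log2 scale, beside 0.47 at P34 and 0.55 at P38.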
